A study of Mus musculus with 2 samples.

Results

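The proteasome genes described here are the 50 nuclear protein-coding mouse genes whose symbol begins with Psma, Psmb, Psmc, Psmd, Psme, Psmf or Psmg followed by a digit. They were taken by symbol alone, out of 21461 nuclear protein-coding genes and 43346 genes with an Ensembl identifier in the deposited tables. RNA longer than 200 nt from whole forebrain of newborn B6NCrl mice (postnatal day 0, untreated as far as the labels say, sex not collected) was sequenced from 13 pg, 1 cell-equivalent, with a Smart-seq protocol. There were 2 libraries in 1 group, 1 from pup 1 and 1 from pup 3. The labels name them as different pups but give both the same donor identifier. With 1 library per pup there is no test between pups, and a difference between them mixes animal, amplification and sampling of very little RNA. In such bulk RNA, fewer cells of a type and less RNA per cell cannot be told apart.

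The 26S proteasome degrades proteins that carry ubiquitin chains. Its 20S core is a barrel of outer alpha rings, which gate the pore, around inner beta rings, which hold the caspase-like, trypsin-like and chymotrypsin-like sites. The 19S cap binds ubiquitin, removes it and feeds the unfolded chain into the core through a ring of ATPases. In the immunoproteasome, which interferon induces, the catalytic beta subunits are replaced by others that favour peptides for MHC class I. In neurons the proteasome clears short-lived and damaged proteins and takes part in axon growth and synapse remodelling.

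Expected reads summed to 41082811 in pup 1 and 29881397 in pup 3, so 3 reads, the floor used for a gene with 0 reads, equal 0.0730 and 0.1004 CPM (counts scaled to library total). ERCC spike-ins held 4.46% of TPM (a level per gene length, scaled so that every library has an equal total) in pup 1 and 7.30% in pup 3. Nuclear protein-coding genes found at 1 TPM or more numbered 9048 and 6210. All 6 neuron markers were found in both pups, and 3 of 5 telencephalon markers were, with Emx2 at 0 reads in both. Of all nuclear protein-coding genes, 24.7% were found in both pups.

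Sequences of 3 proteasome genes are shown first, a choice made after the values were seen. In these genes the estimated share of transcript models that hold 1 coding segment differed widely between the pups. The segment is printed in capitals between flanking bases in lower case. The letters are those of the GENCODE M21 transcripts on mm10, 5′ to 3′ along the gene. In Psmg4, an assembly chaperone gene, the segment is a coding exon of 76 bases on the plus strand at chr13:34166061-34166136.
Psmg4-202: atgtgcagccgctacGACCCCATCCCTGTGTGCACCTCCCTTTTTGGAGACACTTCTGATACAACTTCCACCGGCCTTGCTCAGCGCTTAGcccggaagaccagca
Psmg4-201: atgtgcagccgctaccccggaagaccagca
In Psmd4, the ubiquitin receptor gene of the cap, it is a coding stretch of 9 bases on the minus strand at chr3:95033909-95033917.
Psmd4-201: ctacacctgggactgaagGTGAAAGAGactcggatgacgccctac
Psmd4-202: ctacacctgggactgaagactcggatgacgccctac
In Psmd12, a lid subunit gene, it is a coding exon of 60 bases on the plus strand at chr11:107485550-107485609.
Psmd12-201: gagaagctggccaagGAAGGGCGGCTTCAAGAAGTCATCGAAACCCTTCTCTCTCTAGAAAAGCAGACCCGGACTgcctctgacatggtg
Psmd12-202: gagaagctggccaaggcctctgacatggtg
The segments of Psmd4 and Psmd12 are whole codons long, and that of Psmg4 leaves a remainder of 1 base. Their shares in each pup are given with the transcript results.

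Proteasome genes were among the abundant transcripts of the newborn forebrain. Of the 50 genes, 41 were found in both pups, where 24.7% of all nuclear protein-coding genes were. A further 5 were found in pup 1 alone (17.4% of all), 0 in pup 3 alone (4.22% of all) and 4 in neither pup (53.6% of all). The median of the 50 levels was 176 TPM for pup 1 against 138 TPM for pup 3. By its mean level, the median proteasome gene stood higher than 95.99% of nuclear protein-coding genes. Together the 50 genes made up 1.06% of TPM in pup 1 and 1.27% in pup 3. In both pups 28 of them reached 100 TPM or more. Level bears on these counts, since 95.6% of all nuclear protein-coding genes at a mean of 50 TPM or more were found in both pups.

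The level of every gene is plotted by pup.

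**Figure D1:**
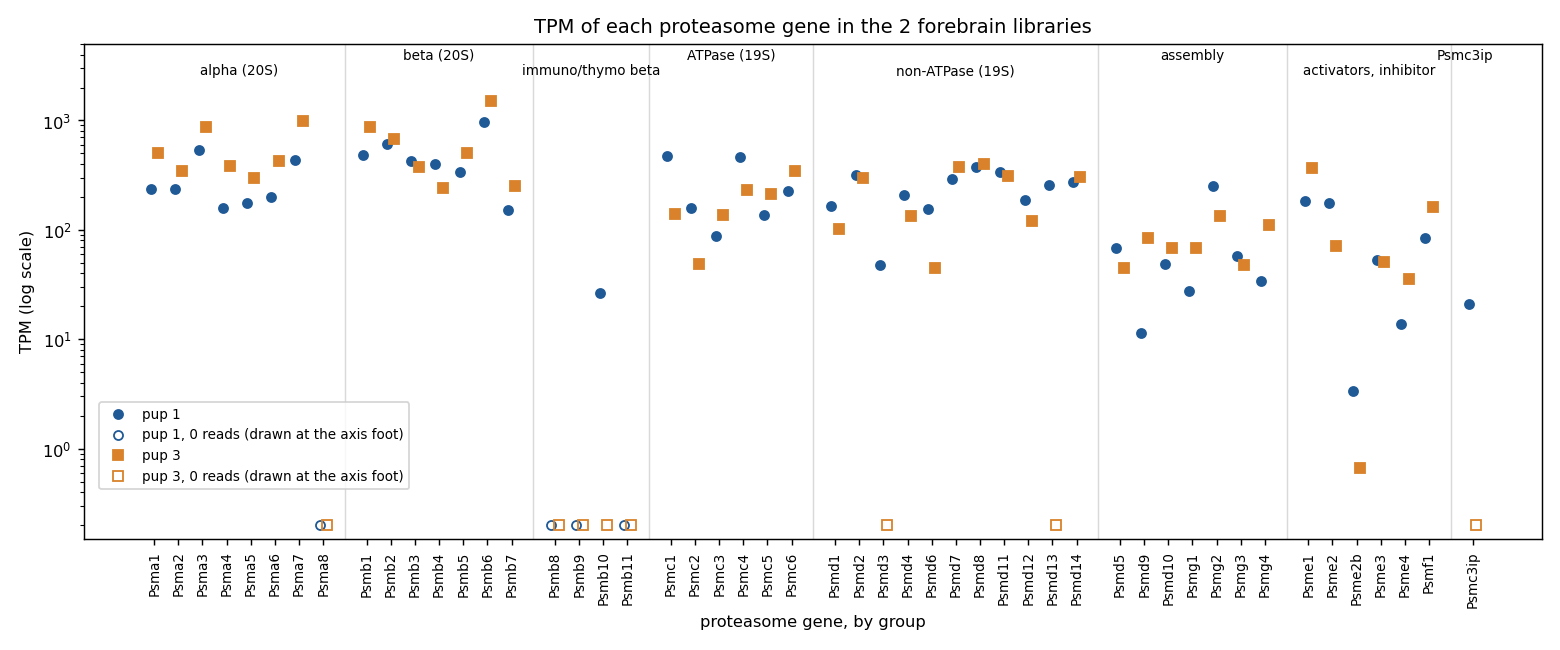
TPM of the 50 proteasome genes on a log axis, with pup 1 as circles and pup 3 as squares, ordered by group. Open symbols at the foot mark 0 reads. The 20S genes lie between 150 and 1502 TPM apart from Psma8, and the immunoproteasome genes lie at 0 reads except Psmb10 in pup 1.

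The 7 alpha subunit genes with reads all had a higher level in pup 3, where 53.4% of all nuclear protein-coding genes at a mean of 50 TPM or more did. Psma7 stood at 438 TPM in pup 1 and at 991 TPM in pup 3, Psma3 at 533 and 864 TPM, and Psma1 at 234 and 504 TPM. Psma6 stood at 202 and 423 TPM, Psma4 at 158 and 383 TPM, Psma2 at 235 and 348 TPM, and Psma5 at 176 and 299 TPM. Each is a structural part of the outer ring, and none has a catalytic site. The levels of these 7 genes sum all transcript models, and most Psma3 TPM lay in models not classed as coding, given below. Psma1, Psma4, Psma6 and Psma7, 4 of these 7, lay over 2-fold apart, against 23.6% of all nuclear protein-coding genes at a mean of 50 TPM or more in that direction. The summed alpha level was 1976 TPM in pup 1 and 3813 TPM in pup 3, 1.93 times higher. The log2 ratios of pup 3 to pup 1, taken on TPM + 1 here and below, were close to each other, with a median of 1.07 and an SD of 0.27 over the 7 genes. Over all nuclear protein-coding genes at a mean of 50 TPM or more, the median was 0.12 and the SD 2.04. Among those found in both pups, as the 7 alpha genes were, the median was 0.14 and the SD 1.44. The sets are not matched for level, with a median of 312 TPM for the 7 alpha genes and 112 TPM for those found in both pups. Psma8, the testis form that takes the place of Psma7 in germ cells, had 0 reads in both pups.

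Among the beta subunit genes, Psmb6, which encodes the caspase-like catalytic subunit, was the highest proteasome gene, at 977 TPM in pup 1 and at 1502 TPM in pup 3 (mean 1239 ± 371 SD, n = 2). Psmb5, the chymotrypsin-like subunit, stood at 338 and 501 TPM, and Psmb7, the trypsin-like subunit, at 150 and 249 TPM. The catalytic genes kept nearly the same proportions in the 2 pups, although they fill the ring in equal numbers. Psmb6 was 6.49 times Psmb7 in pup 1 and 6.02 times in pup 3, and it was 2.89 and 3.00 times Psmb5. Of the non-catalytic beta genes, Psmb1 stood at 485 and 880 TPM and Psmb2 at 614 and 680 TPM. Psmb3, at 427 and 374 TPM, and Psmb4, at 399 and 242 TPM, were lower in pup 3. Thus 5 of 7 beta genes were higher in pup 3, where 53.4% of all genes at a mean of 50 TPM or more were. All 7 lay within 2-fold, where 56.7% of all genes at that level did and 59.3% of those found in both pups. The median level was 420 TPM for the 7 beta genes and 112 TPM for those found in both pups. The beta sum was 3390 and 4428 TPM, 1.31 times higher in pup 3.

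Of the immunoproteasome and thymus-specific beta genes, only Psmb10 had reads, and only in pup 1. Psmb8 and Psmb9, which lie within the MHC on chromosome 17 (34197721 to 34201454 and 34181987 to 34187764 on mm10), had 0 reads in both pups. The floor of 3 reads equals 0.0837 TPM of Psmb8 in pup 1 and 0.0958 TPM in pup 3, below the deposited upper credibility bounds of 0.212 and 0.245 TPM. For Psmb9 the same floor gives 0.112 and 0.128 TPM, below deposited upper bounds of 0.694 and 0.780 TPM. The floors reflect read counting and the deposited bounds counting and mapping within a library. Neither allows for copies of 1 molecule made by PCR, which were counted as separate reads. Psmb10 on chromosome 8 had 827 reads in pup 1, 26.6 TPM, and 0 reads in pup 3. Psmb11, the thymus-specific catalytic subunit, had 0 reads in both.

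The constitutive catalytic genes Psmb5, Psmb6 and Psmb7 summed to 1465 TPM for pup 1 and 2252 TPM for pup 3. The immunoproteasome genes that replace them, Psmb8, Psmb9 and Psmb10, summed to 26.6 and 0 TPM. The constitutive sum was thus 55.1 times the immunoproteasome sum in pup 1. In pup 3, where all 3 immunoproteasome genes had 0 reads, 3 reads of each would sum to 0.335 TPM, and the constitutive sum was 6729 times that. The deposited upper credibility bounds of the 3 genes sum to 1.13 TPM, which gives a lower ratio of 1990. Of the TPM in both sets, the immunoproteasome genes held 1.78% in pup 1.

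Other genes of class I antigen processing were mixed. B2m, the invariant light chain, stood at 107 TPM in pup 1 and at 381 TPM in pup 3. The heavy chain gene H2-D1 stood at 132 and 57.9 TPM, and H2-K1 at 36.7 TPM and 0 reads. The peptide transporter gene Tap1 had 914 reads in pup 1 (12.7 TPM) and 0 in pup 3, and its start overlaps the start of Psmb9 on the other strand. The strand setting of the counting is not given in the sources used here, so reads in that overlap could not be assigned by strand. Tap2, Irf1 and Nlrc5 had 0 reads in both pups. In all, 3 of 9 genes of this list were found in both pups, where 24.7% of all nuclear protein-coding genes were.

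Of 10 markers of microglia, the brain cells that express immunoproteasome and class I genes most readily, 8 were higher in pup 1. Over all nuclear protein-coding genes above 0 TPM in either pup, 7311 of 11402 were. Found in pup 1 alone were 5 of the markers (17.4% of all nuclear protein-coding genes), and 1 in pup 3 alone (4.22%). The summed level of the 10 markers was 315 TPM in pup 1 and 116 TPM in pup 3. At 0 reads were 2 of 10 markers in pup 1 and 7 of 10 in pup 3. Csf1r and C1qa were at 34.5 and 76.2 TPM in pup 1 and at 0 reads in pup 3, whereas C1qc had 0 reads in pup 1 and 49.1 TPM in pup 3. P2ry12 had 0 reads in both pups. Endothelial markers summed to 57.8 and 209 TPM, with 1 and 3 of 6 at 0 reads and Kdr at 0 reads in both. The part of any of these cell types in the Psmb10 difference was not tested.

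The ATPase genes, whose products form the unfolding ring of the 19S base, split between the pups. Psmc1 stood at 472 TPM in pup 1 and at 139 TPM in pup 3, and Psmc2 at 158 and 48.7 TPM, both over 2-fold higher in pup 1. Of all nuclear protein-coding genes at a mean of 50 TPM or more, 19.7% lay over 2-fold apart in that direction. These 2 genes, whose products pair within the ring, kept their proportion, with Psmc1 at 2.99 times Psmc2 in pup 1 and 2.86 times in pup 3. Psmc4 was also higher in pup 1, at 460 and 233 TPM. Psmc3, at 87.3 and 136 TPM, Psmc5, at 136 and 212 TPM, and Psmc6, at 227 and 345 TPM, were higher in pup 3. The 6 ATPase genes summed to 1541 and 1114 TPM.

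Of the 10 non-ATPase genes of the cap at a mean of 50 TPM or more, 7 were higher in pup 1, where 46.6% of all nuclear protein-coding genes at that level were. The other gene of the 11, Psmd3, is given with Psmd13. The highest were Psmd8, a lid subunit, at 372 TPM in pup 1 and at 403 TPM in pup 3, Psmd7, a lid subunit that pairs with the deubiquitinase, at 294 and 372 TPM, and Psmd11, also of the lid, at 341 and 312 TPM. Psmd14, the deubiquitinase itself, stood at 276 and 302 TPM, and Psmd2, a large scaffold of the base, at 315 and 298 TPM. These 5 genes differed by less than 1.5-fold. The other scaffold gene, Psmd1, stood at 164 and 102.9 TPM, the ubiquitin receptor gene Psmd4 at 209 and 134 TPM, and the lid gene Psmd12 at 187 and 120 TPM. Psmd6, a lid subunit, was 3.47 times higher in pup 1, at 156 and 45.0 TPM. The 11 genes summed to 2617 TPM in pup 1 and 2088 TPM in pup 3.

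A pair of lid genes had 0 reads in pup 3. Psmd13 (ENSMUSG00000025487, chromosome 7, 140881968 to 140898643 on mm10) had 9122 reads in pup 1, 256 TPM, which is 1507 times the level of 3 reads in pup 3. The deposited upper credibility bound for pup 3 was higher than the level of 3 reads, at 6.21 TPM, and the level in pup 1 was 41.3 times that bound. Among 1519 nuclear protein-coding genes at a mean of 100 TPM or more, 8 had 0 reads in pup 3, and Psmd13 was 1 of these. Psmd3 had 2613 reads in pup 1, 48.2 TPM, which is 656 times the level of 3 reads in pup 3. That level in pup 1 was 121.5 times the deposited upper bound for pup 3 of 0.397 TPM. Its mean was 24.1 TPM, and 19.9% of all nuclear protein-coding genes at a mean of 20 TPM or more were over 4-fold higher in pup 1. A complete cap holds both subunits, and whether their 0 reads in pup 3 are linked was not tested.

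Over all 39 proteasome genes at a mean of 50 TPM or more, 22 were higher in pup 3, where 53.4% of all nuclear protein-coding genes at that level were. Over 2-fold apart were 5 genes in each direction, against 23.6% of all genes toward pup 3 and 19.7% toward pup 1. The 5 toward pup 3 were Psma1, Psma4, Psma6, Psma7 and Psmg4, and the 5 toward pup 1 were Psmc1, Psmc2, Psmd6, Psmd13 and Psme2. Within 2-fold lay 29 of 39 genes, 74.4%, against 56.7% of all genes. The SD of the log2 ratio was 1.57 over these genes and 2.04 over all. Among all genes at that level found in both pups, 59.3% lay within 2-fold and the SD was 1.44. The sets are not matched for level, with a median of 275 TPM for the 39 proteasome genes and 108 TPM for all. Over 4-fold apart at a mean of 20 TPM or more were Psmd9 toward pup 3 (14.0% of all genes at that level) and Psmd3 and Psmd13 toward pup 1 (19.9%). The deposited credibility bounds of the 2 pups overlapped for 1 of the 42 genes with reads in both, Psme3. The share over all genes was not computed, so this count does not set proteasome genes apart. These bounds describe counting and mapping within a library and not the spread between animals.

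**Figure D2:**
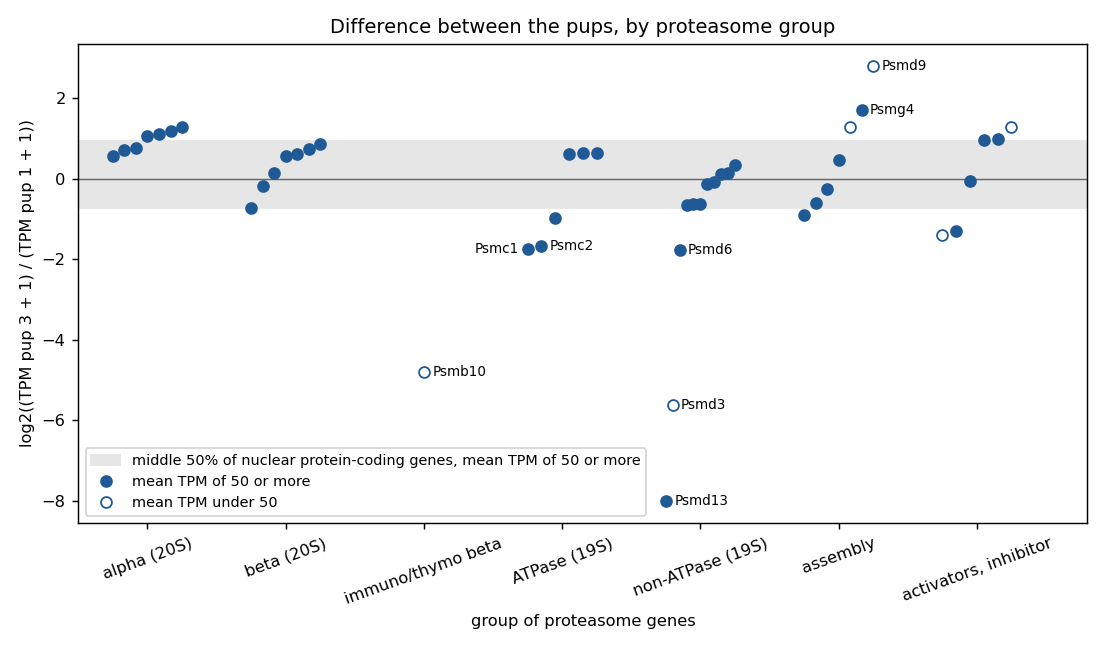
Log2 ratio of TPM + 1, pup 3 to pup 1, for each proteasome gene above 0 TPM in either pup except Psmc3ip, by group. Filled points have a mean of 50 TPM or more, and the grey band holds the middle 50% of all nuclear protein-coding genes at that level, from -0.73 to 0.93. All 7 expressed alpha genes lie above 0, and Psmd13, Psmd3 and Psmb10, with 0 reads in pup 3 and a position set by the added 1, lie lowest.

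Core and cap genes were set side by side, a comparison chosen after the values were seen. The 14 constitutive 20S genes had a mean level of 383 TPM per gene in pup 1 and 589 TPM in pup 3. The 17 genes of the 19S cap had 245 and 188 TPM per gene. The ratio of core to cap was 1.57 in pup 1 and 3.12 in pup 3, 1.99 times higher in pup 3. Of the 14 core genes 12 were higher in pup 3, and of the 16 cap genes at a mean of 50 TPM or more 6 were, against 53.4% of all genes at that level.

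Gene length moved with this difference across the whole libraries. The core genes are shorter, with a median effective length of 891 bases against 1404 bases for the cap genes. Over all nuclear protein-coding genes at a mean of 50 TPM or more, the median log2 ratio was 0.46 under 700 bases, 0.34 from 700 to 1000, 0.25 from 1000 to 1300, 0.12 from 1300 to 1700, -0.14 from 1700 to 2500 and -0.11 from 2500 bases. Among the 725 genes of 700 to 1300 bases, 60.6% were higher in pup 3, 27.4% were over 2-fold higher there and 15.7% over 2-fold higher in pup 1. Within that range the 12 core genes had 330 and 530 TPM per gene and the 7 cap genes 252 and 211 TPM per gene. The ratio of core to cap was then 1.31 in pup 1 and 2.52 in pup 3, 1.92 times higher in pup 3. The core genes were still shorter within that range, with a median effective length of 937 bases against 1217 bases for the cap genes. The part of length in the difference was not tested.

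**Figure D3:**
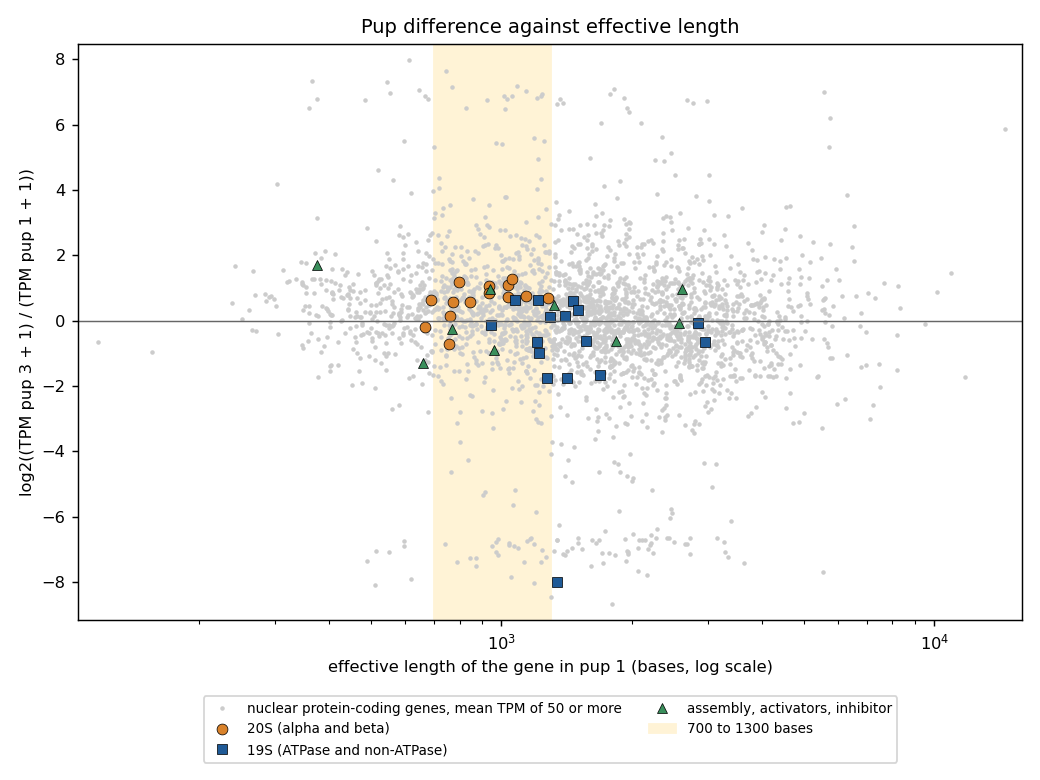
Log2 ratio of TPM + 1, pup 3 to pup 1, against effective length in pup 1 on a log axis, for nuclear protein-coding genes at a mean of 50 TPM or more (grey) and proteasome genes (coloured). In the shaded range of 700 to 1300 bases, 11 of 12 core genes and 3 of 7 cap genes lie above 0.

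The median level of the 7 assembly chaperone genes was 48.5 TPM for pup 1 and 68.6 TPM for pup 3. The medians of the core genes were 369 and 462 TPM and those of the cap genes 227 and 139 TPM. All 7 chaperone genes were found in both pups, where 24.7% of all nuclear protein-coding genes were. The chaperones of the core are encoded by Psmg1, at 27.6 TPM in pup 1 and at 68.6 TPM in pup 3, its partner Psmg2, at 254 and 135 TPM, Psmg3, at 57.7 and 47.9 TPM, and its partner Psmg4, at 33.8 and 111 TPM. The partners of each pair lay in opposite directions. The chaperones of the base are encoded by Psmd5, at 68.7 and 44.4 TPM, Psmd10, at 48.5 and 67.7 TPM, and Psmd9, at 11.3 and 84.8 TPM, 7.48 times higher in pup 3. The group summed to 501 and 559 TPM.

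Among activators, Psme1 and Psme2 encode the subunits that together form the 11S cap. Psme1 stood at 185 TPM in pup 1 and at 365 TPM in pup 3, and Psme2 at 177 and 71.7 TPM. They were nearly equal in pup 1, with Psme1 at 1.05 times Psme2, and unequal in pup 3, at 5.10 times. Psme2b, a near copy of Psme2 with which reads were shared, stood at 3.35 and 0.66 TPM. Psme3, the nuclear activator, was the closest between pups, at 53.1 and 50.4 TPM. Psme4, the large activator known from chromatin and testis, stood at 13.9 and 35.4 TPM. Psmf1, which encodes an inhibitor of the core, stood at 83.6 and 163 TPM. Psmc3ip is a recombination protein that the symbol rule takes with the subunits, and it stood at 21.03 TPM in pup 1 and had 0 reads in pup 3.

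Transcript shares were read for the 41 genes at a mean of 20 TPM or more with reads in both pups. Of these, 7 have 1 listed transcript and 34 have more. The same transcript led in both pups in 31 of the 34, and in 18 it held 90% or more of the gene's TPM in each. In 9 genes some transcript differed by over 20 percentage points. The same counts were not made over all genes, so they do not set proteasome genes apart. These shares are estimates from reads split between overlapping models, and their error between animals is not known from 1 library each.

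The segments printed above differed as follows. Psmg4 transcripts with the 76-base exon held 0% of its TPM in pup 1 and 68.5% in pup 3, from 336 and 1107 reads of the gene. Psmd4 transcripts with the 9-base stretch held 41.4% of the TPM that could be assigned in pup 1 and 1.36% in pup 3. Psmd12 transcripts with the 60-base exon held 59.8% in pup 1 and 91.9% in pup 3. Models with the segment thus prevailed in pup 3 for Psmg4 and Psmd12, and the model without it for Psmd4. These are shares of whole transcript models, and reads over the segments were not counted. The models also differ elsewhere. Psmd12-201 is 1904 bases long and Psmd12-202 is 1311, while Psmd4-201 is 1276 and Psmd4-202 is 1332. The shares may therefore rest on reads outside the segments.

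**Figure D4:**
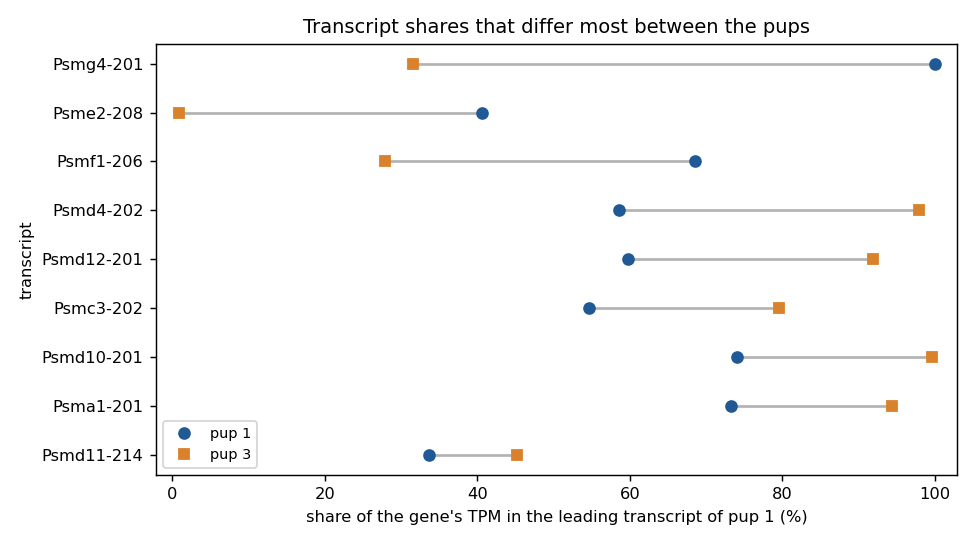
Share of a gene's TPM, in percent, held by the transcript that led in pup 1, for the 9 genes with a transcript differing by over 20 percentage points. Circles are pup 1 and squares pup 3, and Psmg4-201 runs from 100% to 31.5%.

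The leading transcript differed between pups in Psmg4, Psme2 and Psmf1. For Psme2, Psme2-208 held 40.5% in pup 1 and 0.836% in pup 3, and Psme2-201 held 29.3% and 76.0%. For Psmf1, a transcript classed in GENCODE M21 as subject to nonsense-mediated decay, Psmf1-206, held 68.5% in pup 1 and 27.9% in pup 3, and the coding Psmf1-202 held 29.3% and 72.1%. In 2 core genes the leading model was not classed as coding in either pup. Psmb4-202, a retained-intron model, held 62.3% of Psmb4 in pup 1 and 57.0% in pup 3. Psma3-201, classed under nonsense-mediated decay in M21, held 42.8% and 46.6% of Psma3. All models of Psma3 not classed as coding held 77.2% in pup 1 and 95.2% in pup 3. Its highest coding model, Psma3-202, stood at 121 TPM in pup 1 and at 39.5 TPM in pup 3, opposite in direction to the gene level. The classes come from a later release than the M4 annotation behind the counts.

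Genes that work with the proteasome but fall outside the symbol rule also differed between the pups. Of 9 partners with a match, 7 were found in both pups, where 24.7% of all nuclear protein-coding genes were. Pomp, the maturation factor of the core, stood at 121 TPM in pup 1 and at 647 TPM in pup 3. The cap-bound deubiquitinases Usp14, at 83.8 and 192 TPM, and Uchl5, at 17.7 and 183 TPM, were likewise higher in pup 3. Adrm1, the receptor that recruits Uchl5, stood at 99.5 and 48.7 TPM, and Txnl1, a thioredoxin bound to the cap, had 6077 reads in pup 1 and 1 in pup 3. Of 9 matched genes for ubiquitin shuttles and the p97 segregase, 7 were found in both pups, against the same 24.7%. Among the 7 were Vcp, p97 itself, at 309 and 117 TPM, and its cofactor Ufd1, at 138 and 243 TPM.

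Nfe2l1 encodes the transcription factor Nrf1, which raises proteasome subunit genes through antioxidant response elements when the proteasome is inhibited. It stood at 47.2 TPM in pup 1 and at 4.77 TPM in pup 3. Ngly1, which deglycosylates Nrf1, stood at 17.6 and 35.7 TPM, and Ddi2, the protease that cleaves it, at 4.57 and 6.71 TPM. Of these genes and Nfe2l2, 3 of 4 were found in both pups, where 24.7% of all nuclear protein-coding genes were.

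Promoter windows of 250 bases before the start, from RefSeq on GRCm38.p6, were matched for 42 of the 50 genes (45 windows) and searched on both strands. The antioxidant response element, written TGACNNNGC, was in 5 of 45 windows, 11.1%, and in 10.2% of all 32817 windows. The interferon-stimulated response element, searched as GAAA, 2 free bases and GAAA, was in 3, 6.67% against 2.97%, those of Psmb3, Psmd4 and Psmd9. CCAAT was in 15, 33.3% against 33.8%. It was in the windows of 5 of 7 alpha genes, 1 of 4 constitutive beta genes with a window and 4 of 14 cap genes. This split was looked at after the values were seen. All 7 alpha genes were higher in pup 3. Of the beta and cap genes with CCAAT, Psmb3, Psmc1, Psmc2 and Psmd4 were higher in pup 1 and Psmd14 in pup 3. A link between CCAAT and the pup difference was not tested. CCAAT lies 196 bases before the start in Psma7 (minus strand, chr2:180042626-180042690) and 139 bases before it in Psma3 (plus strand, chr12:70974454-70974518). In Psmb5 the element TGACGTCGC begins 47 bases before the start (minus strand, chr14:54618004-54618072). The matches stand in capitals, and a match is a description of letters and not a site.
Psma7: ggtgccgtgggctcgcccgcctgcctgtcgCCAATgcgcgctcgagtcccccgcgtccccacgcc
Psma3: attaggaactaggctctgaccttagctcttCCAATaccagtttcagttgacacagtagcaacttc
Psmb5: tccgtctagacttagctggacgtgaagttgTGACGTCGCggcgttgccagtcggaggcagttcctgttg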

How the data were processed

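The authors deposited expected counts (reads estimated per feature, with reads that map to several features divided among them), per the file headers, which carry RSEM's column names. The TPM they deposited sums to the same total in each library, spike-ins included, and comes with posterior mean TPM and credibility bounds. The deposited FPKM is scaled by effective length and library total, per the file headers. Text deposited with the libraries names mm10 and annotation M4; the aligner, the counter, versions and strand setting are not stated there or in the labels.

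Symbols, positions and transcript classes came from GENCODE M21, by identifier without version (42462 of 43346 genes matched). Reads shared with another feature gave non-whole counts (over 0.005 from a whole number) in 11 of the 50 genes, Psme2, Psme2b, Psmc3ip, Psma3, Psma4, Psma5, Psmb3, Psmc1, Psmd1, Psmd2 and Psmd11, whose levels are less certain. Of 224 transcripts of these genes, 5 were not in M21. Log2 ratios used a pseudocount of 1, so they understate the change of low genes, and a fold against 0 reads used 3 reads per gene and library, beside the deposited upper bound. A gene was called found at 1 TPM or more. Calls of 2-fold at a mean of 50 TPM or more and of 4-fold at 20 TPM or more are folds without a test.

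The members and lists were chosen with earlier results of these data known. Groups of up to 7 are given in full, larger ones by their 3 highest and 2 lowest genes and those found in 1 pup alone or over 4-fold apart, and related lists by their 3 highest; Psma2, Psma4, Psma6, Psmd1, Psmd2, Psmd4, Psmd12, Psmd14 and the further genes of related lists were added after their values were seen. In the list of partners, Shfm1, AI314180 and Paaf1 had no match. The steps were tested on simulated data, in which 100% of 200 genes changed 4-fold among 2797 were called past 2-fold. The simulation held counting noise alone, without amplification or loss of RNA at low input. It thus checks that the steps run as meant and not how reliable the calls are. The tools were pandas 2.3.3 and numpy 2.4.6 in Python 3.11.15, with scipy 1.17.1 and, for plots, matplotlib 3.10.9. Alternatives covered detection, TPM, FPKM and CPM, pseudocount, level, scaling, thinned reads, fold and each pup alone.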

Additional observations from a re-analysis of the deposited data

Results flagged for a closer look

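The processed pseudogene Psmb6-ps2, which is outside the 50 protein-coding genes, had 7 reads in pup 1 against 6 in pup 3, above the floor of 3 reads in each. Its level was 0.44 and 0.43 TPM, beside 977 and 1502 TPM for Psmb6. Reads of the parent gene and its copy were not told apart here.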

How the results depend on the processing

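No paired analysis was possible because the 2 libraries form 1 group and there is no contrast. The number of proteasome genes found in both pups, 41, was 41 or 42 under its 4 alternatives, and the ratio of core to cap between pups, 1.99, ran from 1.85 to 2.04 under its 6, all chosen after the data were seen. The median level of 173 TPM was 123 as FPKM, and 138 in pup 3 alone to 176 in pup 1 alone. The median log2 ratio of 0.14, over the 46 proteasome genes above 0 TPM in either pup, was 0.40 with FPKM, 0.39 with CPM and 0.0021 with median-of-ratios scaling. Over all nuclear protein-coding genes at a mean of 50 TPM or more the same scalings moved the median from 0.12 to 0.38, 0.31 and -0.018, and the proteasome genes moved with it. These 2 sets were filtered differently. Over all nuclear protein-coding genes above 0 TPM in either pup the median was -0.49. Over the 39 proteasome genes at a mean of 50 TPM or more it was 0.15. The 5 genes over 2-fold higher in pup 3 became 8 at a mean of 20 TPM or more, 8 without a filter on level, 9 with CPM and 0 at 4-fold. The 5 higher in pup 1 became 9 without a filter and 1 at 4-fold. The constitutive to immunoproteasome ratio of the means, 140, was 55.1 in pup 1 alone. In pup 3 alone, where the immunoproteasome genes had 0 reads, it was 6729 against 3 reads of each gene and 1990 against their deposited upper bounds. With 1 library per pup, the error of a difference between pups is not known at any depth.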
